A study of Danio rerio with 10 samples.

Results

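The genes described here are the zebrafish genes for the proteins of the cytosolic ribosome, measured in whole larvae that lack a working top2a gene. They were chosen by gene name, as every gene whose name starts with rps or rpl followed by a number, plus rpsa and the stalk genes rplp0, rplp1 and the like, leaving out the S6 kinases and rps27l. The rule took 84 of the 25911 genes in the count table. Of these, 81 were counted by name and annotation as ribosomal protein genes, 34 in the small subunit and 47 in the large one. The 47 include rpl7l1 and rpl22l1, close relatives of large subunit proteins that were not checked as parts of the mature ribosome. The other 3 of the 84 are annotated as other genes. A second row named rpl9 carries the human symbol RFC1, a second row named rpl37 carries COA1, and rps19bp1 encodes a binding partner of the Rps19 protein.

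The mutants were can4-/- larvae, homozygous for a loss-of-function allele of top2a, which encodes DNA topoisomerase II alpha. They were set against WT siblings from the same incross of can4 heterozygotes in the AB strain. Both genotypes were collected at 3 dpf (days post fertilization) as 5 pools of 9 larvae each, so that 45 individually genotyped larvae stood behind each genotype. Mutants keep some maternal top2a product in the first days, and whole larvae hold every tissue. In such samples fewer cells of a type and less RNA per cell cannot be told apart. The libraries were stranded total RNA after rRNA removal, and so they hold no measure of the rRNA itself.

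A ribosome is built from a few rRNAs and one copy of nearly every ribosomal protein (the stalk proteins P1 and P2 are present in several copies). Cells therefore make these proteins in matched amounts, and in vertebrates their mRNAs share a pyrimidine-rich start, the 5′ TOP, through which the mTORC1 kinase controls their translation as a group. In humans, loss of one copy of any of a set of these genes causes Diamond-Blackfan anemia. In mammals, Rpl5 and Rpl11 that are not built into a ribosome bind Mdm2 with the 5S rRNA and keep it from degrading p53.

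The pools held 29281449 to 45544046 counts assigned to genes, and both groups overlapped in depth. The check of the genotype is top2a itself, which had 675, 1358, 656, 635 and 688 normalized counts in can4-/- pools and 9082, 8498, 8646, 8532 and 8498 in WT pools. The can4-/- pool 2 had the most top2a among the mutants and was still far below every WT pool. A normalized count here is a count divided by the pool's library size after TMM scaling, a step that sets the typical gene to no change. TMM factors were 0.929 to 0.959 in can4-/- pools and 1.04 to 1.07 in WT pools. Many cell type markers moved: 11 of 11 photoreceptor markers, 11 of 12 neuronal, 12 of 12 exocrine pancreas and 14 of 16 cell cycle markers fell, while 12 of 13 skeletal muscle, 9 of 10 skin and 8 of 8 lens markers rose. By the same test, described below, 36.3% of all genes tested were called higher and 36.9% lower. Hepatocyte markers (4 of 8 higher, 3 lower) and intestine markers (3 of 8 higher, 3 lower) were mixed. Of the erythrocyte markers, which include the globins, 3 of 11 rose and 1 fell.

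Relative to the typical gene, most ribosomal protein genes rose in can4-/- larvae, by small amounts. Of the 84 genes, which all entered the test, 74 passed it as higher and 2 as lower, leaving 8 that passed in neither direction (edgeR quasi-likelihood test, Benjamini-Hochberg adjusted p under 0.05 over 23039 genes). Among all genes tested, 36.3% were called higher and 36.9% lower. The median log2 fold change of the 84 genes was 0.19, with quartiles of 0.15 and 0.26, while all genes tested had a median of 0.003. Single genes differed little from one another, with an SD of 0.13 in log2 fold change against 1.01 over all genes tested. These SDs are not matched for level, and 81 of the 84 genes had a mean of at least 1000 normalized counts. A narrow spread was not particular to this family. The SD was 0.15 for mitochondrial ribosomal protein genes and 0.06 for proteins of the particles that modify rRNA. Elongation factors were wider, at 0.34. In 67 of the 84 genes every can4-/- pool was above every WT pool, and in 1 every can4-/- pool was below, where 29.4% of all genes tested lay apart upward and 31.4% downward. Large changes were rare. Only rpl11 was both called higher and changed by at least 1.5-fold, where 17.4% of all genes tested did so.

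How many of these genes are called, and the direction of some, depends on what they are set against. Summed over the 84 genes, the counts made up 5.12%, 5.43%, 5.15%, 5.29% and 5.27% of all counts in the can4-/- pools, and 5.24%, 4.86%, 5.27%, 5.18% and 5.09% in the WT pools. The pools of both genotypes were interleaved. The means were 5.25% ± 0.121 in can4-/- larvae and 5.13% ± 0.166 in WT larvae (SD, n = 5 each), a difference that did not exceed the spread between pools (two-sided exact permutation test, p = 0.222, where 5 against 5 pools can reach 0.00794). In CPM, counts scaled to a common library size and here corrected by TMM, the same sum was 55832 ± 952 in can4-/- and 48275 ± 1819 in WT larvae, with no overlap (two-sided exact permutation test, p = 0.00794).

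The rest of the library differed in its make-up between genotypes. The 20 genes with the highest counts outside the family, chosen in each pool separately, took 16.9% to 17.7% of the counts in can4-/- pools and 14.1% to 14.8% in WT pools. The set of 20 may thus differ between pools. Of the counts outside those 20 genes, the ribosomal protein genes took 6.35% ± 0.136 in can4-/- and 5.98% ± 0.198 in WT larvae (SD, n = 5 each, two-sided exact permutation test, p = 0.00794). The summed markers of skeletal muscle reached 38209 to 46220 CPM in can4-/- pools and 24458 to 28825 in WT pools, and those of skin 27830 to 31297 CPM in can4-/- pools and 17752 to 22031 CPM in WT pools. At the other end, the summed photoreceptor markers fell to 10.9 to 32.8 CPM in can4-/- pools, against 1125 to 1823 in WT pools. The part of these shifts in the rise of the ribosomal protein genes was not tested.

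**Figure D1:**
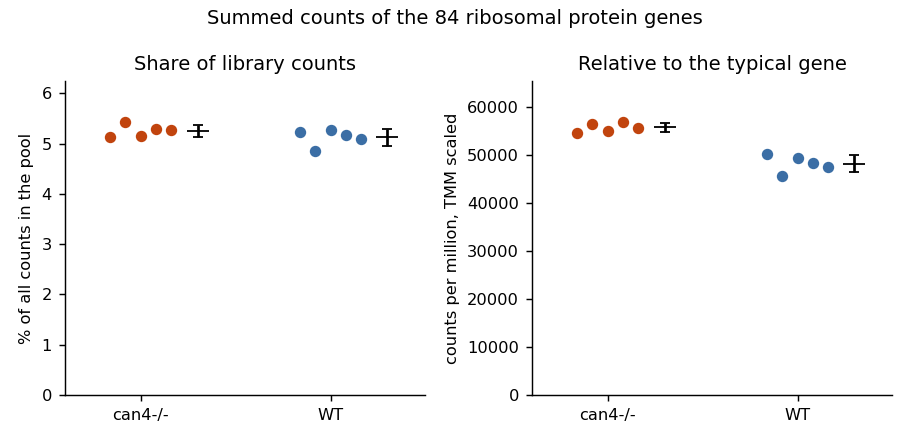
Summed counts of the 84 ribosomal protein genes in each pool, as a percent of all counts (left panel) and in CPM after TMM scaling (right panel). Points are pools, can4-/- left of WT, and the bar beside them is the mean with its SD (n = 5). The shares interleave around 5.25% and 5.13%, while the scaled sums of 55832 and 48275 do not overlap.

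Fitted with library totals in place of TMM, 20 of the 84 genes were higher and 7 lower in can4-/- larvae, where 25.7% of all genes tested were called higher and 47.7% lower. The median of the 84 genes was then 0.01, and that of all genes tested was -0.17. The distance between both medians was 0.19 with either scaling. All 20 genes called higher this way were also called higher with TMM, and 36 of the 84 genes had a negative log2 fold change. The named genes below are therefore given with TMM scaling first and with library totals where that turns the direction or, in several members, takes away the call.

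**Figure D2:**
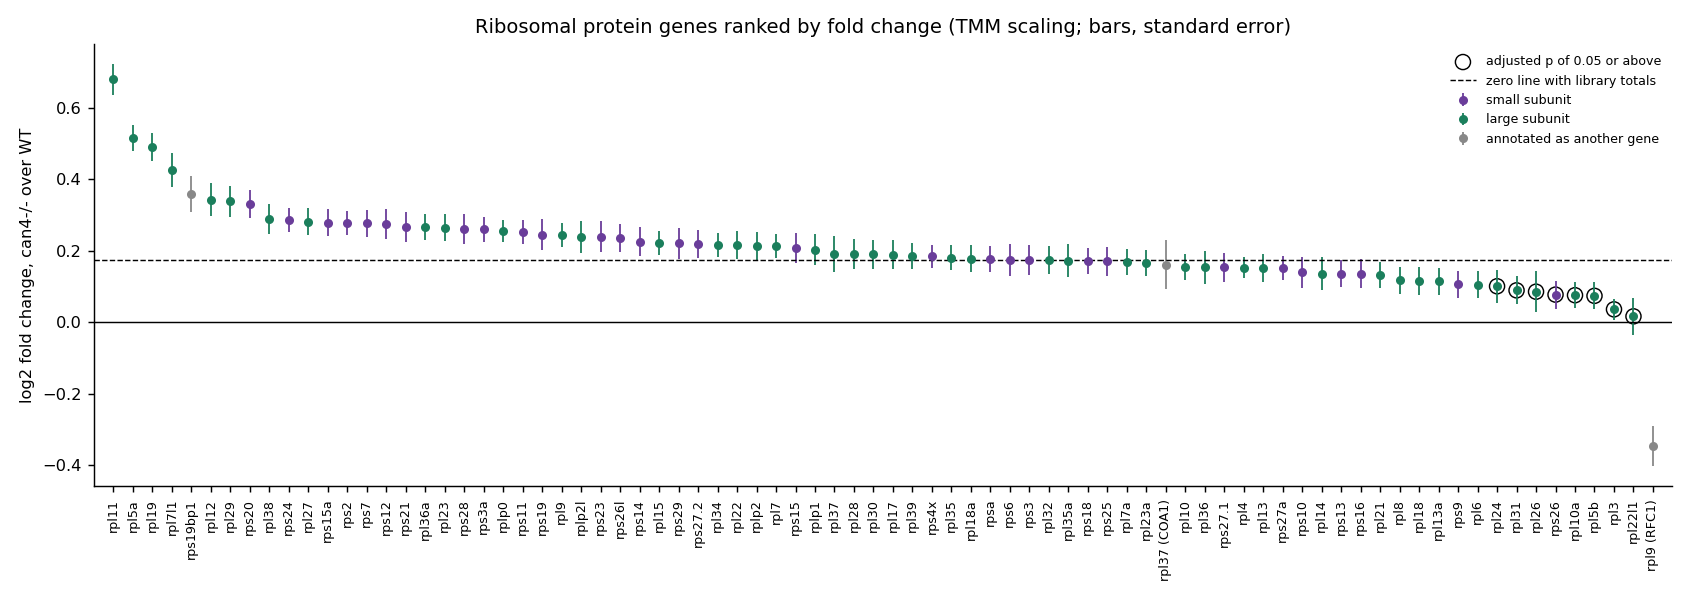
Log2 fold change of can4-/- over WT for 80 of the 84 genes with TMM scaling, ranked, with standard errors, colored by subunit. Rings mark the 8 genes that did not pass, and the dashed line is where zero lies with library totals. Most genes sit in a narrow band around the median of 0.19, with rpl11 at the upper end and the row annotated as RFC1 at the lower end.

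The gene with the largest increase was rpl11 (ENSDARG00000043509, chromosome 19, positions 43780970 to 43786940 of GRCz11), whose protein joins Rpl5 and the 5S rRNA in the central part of the large subunit. It had 29628, 29958, 31859, 31794 and 31074 normalized counts in can4-/- pools, against 20490, 17768, 20008, 19156 and 18982 in WT pools. Every can4-/- pool lay far above every WT pool. The log2 fold change was 0.68 (SE 0.04, edgeR adjusted p = 6.34e-09), or 1.60-fold, and it was 0.50 with library totals. Within the ribosomal protein counts alone, a measure that no library scaling touches, rpl11 took 1.57% ± 0.053 in can4-/- and 1.13% ± 0.020 in WT larvae (SD, n = 5 each, two-sided exact permutation test, p = 0.00794).

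Next was rpl5a (ENSDARG00000020197, chromosome 2, positions 10687276 to 10703621), one of a pair of zebrafish genes for Rpl5, the partner of Rpl11 in the 5S particle. It had 34178, 34699, 34711, 36560 and 35987 normalized counts in can4-/- pools, against 24943, 23300, 25122, 24576 and 25312 in WT pools. The groups were apart by a wide margin, with a log2 fold change of 0.52 (SE 0.04, edgeR adjusted p = 1.35e-08). Its copy rpl5b (ENSDARG00000015862, chromosome 6, positions 29086594 to 29097393) did not follow. It had 26091, 28659, 26743, 27463 and 26755 normalized counts in can4-/- pools, against 26736, 24650, 26650, 25868 and 25068 in WT pools. These values overlapped, and its log2 fold change of 0.07 (SE 0.04, edgeR adjusted p = 0.0957) turned to -0.10 with library totals (edgeR adjusted p = 0.0324). As a share of the ribosomal protein counts, rpl5a took 1.79% ± 0.038 in can4-/- and 1.45% ± 0.037 in WT larvae, while rpl5b took 1.38% ± 0.033 in can4-/- and 1.52% ± 0.016 in WT larvae (SD, n = 5 each, two-sided exact permutation test, p = 0.00794 for both genes). So, inside the family, one copy took a larger share in can4-/- larvae and the other a smaller one.

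The third gene was rpl19, a large subunit protein near the exit of the peptide tunnel that also reaches a bridge to the small subunit. It had 29267, 30585, 29856, 31008 and 29854 normalized counts in can4-/- pools, against 23025, 19988, 21594, 21384 and 21187 in WT pools. Its groups did not overlap, with a log2 fold change of 0.49 (SE 0.04, edgeR adjusted p = 7.13e-08).

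Of the other large increases, some were in genes of lower level. The gene rpl7l1, a relative of rpl7, had 2951, 2631, 2449, 2752 and 2842 normalized counts in can4-/- pools, against 2050, 1947, 2033, 2055 and 2058 in WT pools, for a log2 fold change of 0.43 (SE 0.05, edgeR adjusted p = 2.48e-06). The WT pools of this gene were close to one another, and the mutant pools all lay higher. The row rps19bp1, no ribosomal protein itself, had 1118 ± 73.4 normalized counts in can4-/- and 872.8 ± 26.8 in WT larvae (SD, n = 5), for a log2 fold change of 0.36 (SE 0.05, edgeR adjusted p = 1.84e-05).

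**Figure D3:**
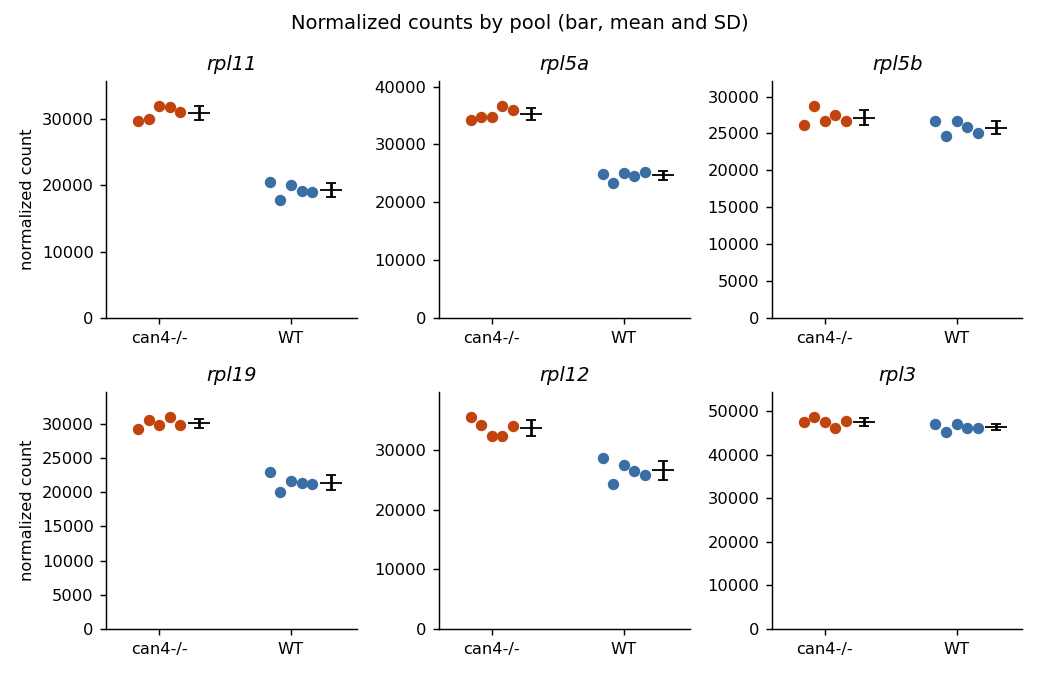
Normalized counts of 6 ribosomal protein genes in each pool, can4-/- left of WT, with the mean and SD beside the points (n = 5). The pools of rpl11, rpl5a, rpl19 and rpl12 lie apart, with can4-/- higher, while those of rpl5b and rpl3 overlap.

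To find which genes left the family's common level, the fit was repeated with the summed counts of the 84 genes as library size. Then 10 genes were above the family, 16 were below it and 58 did not pass, where 23.3% of all genes tested were called higher and 49.5% lower on this scale. Among the genes above were rpl11 (0.47), rpl5a (0.30), rpl19 (0.28), rpl7l1 (0.22), rps19bp1 (0.15), rpl12 (0.13), rpl29 (0.13), rps20 (0.12) and rps24 (0.08), as log2 fold changes against the family total. All 10 were also called higher with TMM and with library totals. Rpl12 sits at the base of the stalk that recruits translation factors, and RPS24 is a Diamond-Blackfan anemia gene in humans.

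Below the family were the 2 genes called lower with TMM, the RFC1 row among them, the 8 that did not pass there, and others such as rpl6, rps9, rpl13a, rpl18 and rpl8. Among them rpl3, which folds into the peptidyl transferase center and is incorporated early in assembly, had 47514, 48650, 47504, 46236 and 47855 normalized counts in can4-/- pools, against 46982, 45326, 47165, 46234 and 46239 in WT pools. The groups overlapped with TMM, at a log2 fold change of 0.04 (SE 0.03, edgeR adjusted p = 0.271), which turned to -0.14 with library totals (edgeR adjusted p = 0.001). Its share of the ribosomal protein counts was 2.42% ± 0.065 in can4-/- and 2.73% ± 0.064 in WT larvae (SD, n = 5 each, two-sided exact permutation test, p = 0.00794). Among the 7 genes called lower with library totals were the RFC1 row, rpl22l1, rpl3, rpl5b, rpl10a and rps26, and all 7 were below the family as well. By contrast, rpl6, rps9, rpl13a, rpl18 and rpl8 were called higher with TMM, at 0.10 to 0.12. With library totals they stood at -0.07 to -0.06 and did not pass.

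Of the rows annotated as other genes, the one called lower with TMM shares its place with a ribosomal protein gene. The row annotated as RFC1, a subunit of the clamp loader of DNA replication, had 1158 ± 89.6 normalized counts in can4-/- and 1473 ± 75.4 in WT larvae (SD, n = 5), and a log2 fold change of -0.35 (SE 0.06, edgeR adjusted p = 7.84e-05). It overlaps rpl9 on the same strand of chromosome 1, so reads cannot be assigned to one of them with certainty. The gene rpl9 itself had 22378 ± 480 normalized counts in can4-/- and 18905 ± 383 in WT larvae (SD, n = 5), a log2 fold change of 0.24 (SE 0.03, edgeR adjusted p = 1.24e-05). With library totals rpl9 did not pass (0.07, edgeR adjusted p = 0.0691). The row annotated as COA1 had 336 ± 19.1 normalized counts in can4-/- and 299.8 ± 19.8 in WT larvae (SD, n = 5). Its log2 fold change of 0.16 (SE 0.07, edgeR adjusted p = 0.0451) turned to -0.01 with library totals, and its call was lost with DESeq2, without the filter, with the replicate block and in 7 of 10 fits that left out a single pool.

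Zebrafish keep some ribosomal protein genes as related pairs, and the ratio within a pair is free of library scaling. Of 5 pairs compared, 3 had ratios in can4-/- pools apart from those in WT pools (two-sided exact permutation test, p = 0.00794, adjusted over the 5 pairs 0.0132). The log2 ratio of rpl5a to rpl5b was 0.39, 0.28, 0.38, 0.41 and 0.43 in can4-/- pools, against -0.10, -0.08, -0.09, -0.07 and 0.01 in WT pools. The WT larvae thus held about equal counts of both copies, and the mutants more of rpl5a, by 0.44 (SE 0.03). For rps26l over rps26 it was 0.66 ± 0.02 in can4-/- and 0.50 ± 0.07 in WT larvae (SD, n = 5). For rpl22 over rpl22l1 it was 1.52 ± 0.11 in can4-/- and 1.32 ± 0.06 in WT larvae (SD, n = 5). In that last pair the groups nearly met, with the lowest can4-/- pool at 1.392 and the highest WT pool at 1.391.

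In the other 2 pairs the ratios of the genotypes overlapped. The log2 ratio of rps27.1 to rps27.2 was 0.40 ± 0.03 in can4-/- and 0.46 ± 0.05 in WT larvae (SD, n = 5, exact permutation test, p = 0.0635, adjusted 0.0794), and that of rplp2l to rplp2 0.58 ± 0.10 in can4-/- and 0.56 ± 0.08 in WT larvae (SD, n = 5, exact permutation test, p = 0.635). The sources used here do not give how reads matching both copies were counted, and the ratios are uncertain to that extent.

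**Figure D4:**
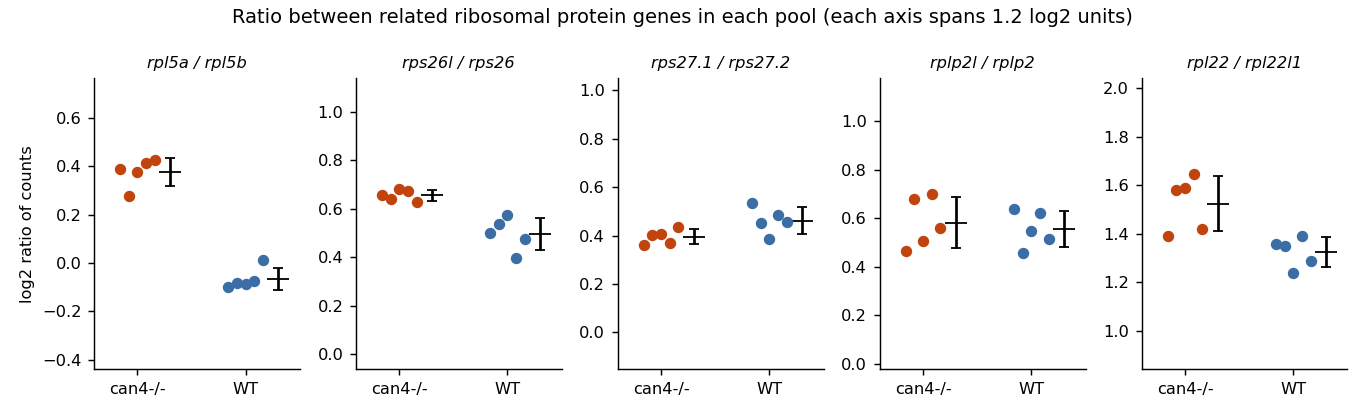
Log2 ratio of counts between related ribosomal protein genes in each pool, can4-/- left of WT, with mean and SD (n = 5), each panel on an axis of the same length. The points of rpl5a over rpl5b lie apart by 0.44, while those of rplp2l over rplp2 interleave.

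By copy, rps26l was higher by 0.24 (SE 0.04, edgeR adjusted p = 0.000106) with TMM and did not pass with library totals (0.06, edgeR adjusted p = 0.172). For rps26 the log2 fold change was 0.08 (SE 0.04, edgeR adjusted p = 0.093), which turned to -0.10 with library totals, was called with DESeq2 (adjusted p = 0.0421) and was called by edgeR without WT pool 1 (adjusted p = 0.0361). For rpl22 it was 0.22 (SE 0.04, edgeR adjusted p = 0.000221), and 0.04 with library totals, where it did not pass (edgeR adjusted p = 0.35). The related gene rpl22l1 stood at 0.02 (SE 0.05, edgeR adjusted p = 0.793), or -0.16 with library totals (edgeR adjusted p = 0.0144). Both copies of rps27 and of rplp2 were called higher with TMM, at 0.15 and 0.22 for rps27.1 and rps27.2 and at 0.24 and 0.21 for rplp2l and rplp2. With library totals rps27.1 turned to -0.02, and none of these copies passed.

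Both subunits moved by similar amounts. In the small subunit 32 of 34 genes were higher and 1 lower, with a median log2 fold change of 0.22. The large subunit had 40 of 47 genes higher and none lower, with a median of 0.19. Over all genes tested, 36.3% were higher and 36.9% lower. The summed counts of the small subunit genes were 0.722 ± 0.0035 of those of the large subunit genes in can4-/- and 0.716 ± 0.0029 in WT larvae (SD, n = 5, two-sided exact permutation test, p = 0.0317). The ratio between genotypes was 1.007, and the difference changed sign when each gene was given equal weight, at -0.01 on the log2 scale (exact permutation test, p = 0.119). That equal-weight mean includes the 1 small subunit gene called lower, and it was not computed without this gene. The medians of the subunits, 0.22 and 0.19, go the other way from it.

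Groups by conservation and by role in the ribosome had close medians. Proteins shared with bacteria are 33 of the family, of which 29 were higher at a median of 0.18. Of 46 proteins without a bacterial counterpart, 42 were higher at a median of 0.19. The share called higher over all genes tested was 36.3%. The 4 stalk genes, rplp0, rplp1, rplp2 and rplp2l, were all higher with TMM, between 0.20 and 0.26, and with library totals rplp0 alone of the 4 passed. Of 26 genes linked to Diamond-Blackfan anemia in humans 22 were higher, with a median of 0.22, and of 53 others 49 were higher, with a median of 0.18. The anemia group includes rpl11 and rpl5a, but also rpl5b and rps26, which did not pass. Its values were spread more widely, with an SD of 0.15 in log2 fold change against 0.10 in the others. Against the family total, 6 genes of the anemia group were above and 6 below.

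The genes with the most counts followed the family. The stalk base gene rplp0 had 61176, 61772, 63606, 61060 and 62137 normalized counts in can4-/- pools, against 52992, 49148, 53216, 52054 and 51971 in WT pools, for a log2 fold change of 0.26 (SE 0.03, edgeR adjusted p = 3.84e-06). All mutant pools were higher. Its share of the family's counts was 3.15% ± 0.088 in can4-/- and 3.05% ± 0.040 in WT larvae (SD, n = 5, exact permutation test, p = 0.0714). For rps2 the log2 fold change was 0.28, and for rpsa, also known as the laminin receptor and mutated in human isolated asplenia, it was 0.18. With library totals rps2 passed (0.10, edgeR adjusted p = 0.0115) and rpsa did not (0.002, edgeR adjusted p = 0.953). The 3 genes rplp0, rps2 and rpsa lead by count and not per length, so their order is not one of mRNA copies.

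Other genes of known role were called higher with TMM. The gene rps6, whose protein is the main substrate of the S6 kinases, had a log2 fold change of 0.17 (SE 0.04), which was -0.0005 with library totals. It was 0.23 for rps14, the gene behind the anemia of the human 5q- syndrome, and 0.24 for rps19, the first gene found mutated in Diamond-Blackfan anemia. With library totals neither passed, at 0.05 for rps14 and 0.07 for rps19 (edgeR adjusted p = 0.275 and 0.17). The log2 fold change with TMM was 0.29 for rpl38, which in mice is needed for the translation of a subset of Hox mRNAs. For rpl10, whose yeast counterpart joins the large subunit late as the export adaptor Nmd3 leaves, it was 0.15, and -0.02 with library totals.

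WT pool 2 was the lowest WT pool in 72 of the 84 genes and WT pool 1 the highest in 60. The can4-/- pool 4 was the highest mutant pool in 40 genes and pool 1 the lowest in 41. The median coefficient of variation among pools, over the 81 genes with a mean of at least 1000 normalized counts, was 2.81% in can4-/- and 4.21% in WT larvae, against 5.95% in can4-/- and 4.29% in WT larvae over all tested genes of that level. Without WT pool 2 the median of the family was lowest, at 0.17, and without WT pool 1 it was highest, at 0.21.

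Some ribosomal proteins lie outside the naming rule, and apart from 1 exception those described here differed by less than 0.20 on the log2 scale. The scaffold protein rack1 of the small subunit was higher by 0.12 (edgeR adjusted p = 0.00763) with TMM, stood at -0.05 with library totals and was below the family total by edgeR (-0.09, adjusted p = 0.0194). A gene with the human symbol RPL37A was higher by 0.18 (edgeR adjusted p = 0.00268) with TMM, and did not pass with library totals (0.008, edgeR adjusted p = 0.882). The gene faua, a fusion with a small subunit protein, did not pass at 0.09 (edgeR adjusted p = 0.0862), though it passed with DESeq2 (adjusted p = 0.0492) and in edgeR without WT pool 1 (adjusted p = 0.0344). It was also below the family total by edgeR (-0.12, adjusted p = 0.0107).

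That exception was rps27l, a paralog of rps27 whose human counterpart is a transcriptional target of p53. It had 5532, 5182, 6001, 5499 and 5921 normalized counts in can4-/- pools, against 991, 636, 749, 1013 and 951 in WT pools. Its mutant pools were several times above every WT pool, with a log2 fold change of 2.698 (SE 0.11, edgeR adjusted p = 1.34e-10), or 6.49-fold, far outside the range of the 84 genes. In the p53 pathway list, which contains rps27l, 13 of 15 genes were higher and 1 lower, with a median log2 fold change of 1.45. The cell cycle inhibitor cdkn1a was higher by 3.15 (SE 0.29) and mdm2, chosen here because its protein binds Rpl5 and Rpl11, by 2.11 (SE 0.10). Whether the p53 pathway and the levels of rpl11 and rpl5a are linked in these larvae was not tested.

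Genes for the assembly of ribosomes had a higher median than those for the ribosomal proteins, and the difference was not tested. Of 86 assembly factors of both subunits 74 were higher and 3 lower, with a median log2 fold change of 0.35 (56 higher and 6 lower at 0.17 with library totals). The export adaptor nmd3 rose by 0.70 (SE 0.05) and the small subunit processome gene utp4 by 0.67 (SE 0.05), while npm1b, for a nucleolar chaperone, fell by 0.62 on the log2 scale (SE 0.06). The proteins of box C/D and H/ACA particles, which modify rRNA, were higher in 11 of 11 genes, with a median of 0.30 and nop58 at 0.36 (SE 0.05), though with library totals 5 of 11 were higher at a median of 0.13. In the RNA polymerase I list, the machinery that transcribes rRNA, 11 of 16 genes were higher and 3 lower at a median of 0.31 (7 higher and 4 lower at 0.13 with library totals). Among those lower was ubtf, for its activating factor, which fell by 0.34 on the log2 scale (SE 0.04).

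Among genes of translation itself, 19 of 20 cytosolic aminoacyl-tRNA synthetases were higher and none lower, with a median of 0.32 (14 higher and 1 lower at 0.14 with library totals) and the tyrosine enzyme yars at 0.78 (SE 0.04). Genes named as initiation factors were higher in 41 of 63 cases and lower in 2, at a median of 0.15 (21 higher and 17 lower at -0.02 with library totals), and those named as elongation factors were higher in 12 of 19 and lower in 2, at a median of 0.25 (9 higher and 4 lower at 0.08 with library totals). These lists were read by gene name and also take in regulators. Of 11 other genes whose mRNAs carry a 5′ TOP in mammals, 10 were higher and none lower, at a median of 0.29 (5 higher and 1 lower at 0.11 with library totals), with the poly(A) binding protein gene pabpc1b at 0.49 (SE 0.04). That list includes rack1.

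Genes upstream of ribosome production were mixed. In the list of mTORC1 and its control of TOP mRNAs, 12 of 21 were higher and 2 lower, at a median of 0.18 (9 higher and 6 lower at 0.01 with library totals). That list holds activators and inhibitors together, so its counts give no direction for the pathway. There the S6 kinase gene rps6kb1a rose by 1.37 (SE 0.08), and its copy rps6kb1b, which had more counts, by 0.18 (SE 0.04). The gene rheb, for the GTPase that activates mTORC1, fell by 1.19 on the log2 scale (SE 0.09). In the list of Myc and its partners, activators and repressors together, 3 of 14 were higher and 8 lower, at a median of -0.15 (2 higher and 8 lower at -0.33 with library totals). Among them mych rose by 0.54 (SE 0.05) and mxd3, for a repressor of that network, fell by 1.03 on the log2 scale (SE 0.06).

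The genes for the mitochondrial ribosome had a lower median, and the share called higher was near that of all genes tested (36.3%). Fewer were called lower than among all genes tested (36.9%). Of 74 mitochondrial ribosomal protein genes 29 were higher, 6 lower and 39 did not pass, at a median of 0.09. With library totals the median was -0.09, and 5 were higher and 31 lower. On that scale 25.7% of all genes tested were higher and 47.7% lower. The largest increase was that of mrpl1, at 0.48 (SE 0.06), and the largest decrease that of mrpl40, at -0.39 (SE 0.09). The mitochondrial transcripts in the libraries took 4.28% ± 0.243 of the counts in can4-/- and 4.12% ± 0.271 in WT larvae (SD, n = 5, exact permutation test, p = 0.365).

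**Figure D5:**
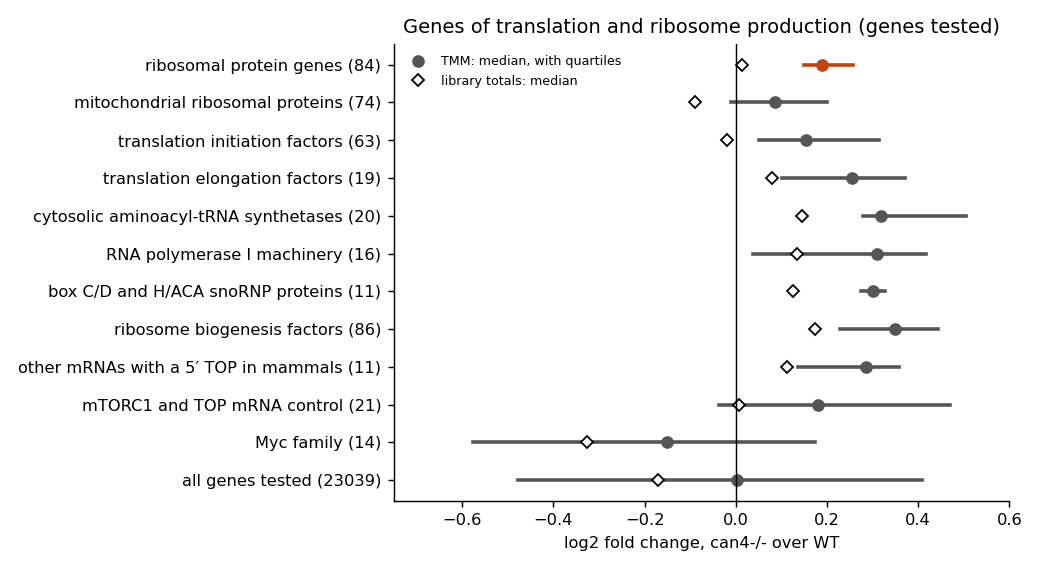
Median log2 fold change of can4-/- over WT in lists of genes of translation and ribosome production, with TMM scaling (filled, bars from the lower to the upper quartile of the genes) and with library totals (open), the number of genes tested in brackets. The ribosomal protein genes have a median of 0.19 with TMM and 0.01 with library totals, and all genes tested 0.003 and -0.17.

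Many ribosomal protein genes carry small nucleolar RNAs, guides for rRNA modification, in their introns. In the annotation 24 of the 84 genes hold 55 such genes on their own strand. Of the 43 with enough counts to test, 7 were higher, none was lower and 36 did not pass, at a median log2 fold change of 0.10, where 36.3% of all genes tested were higher and 36.9% lower. The 24 host genes had a median of 0.18 and the other members 0.20. Most of the 43 small nucleolar RNAs had means under 100 normalized counts. Their standard errors were mostly near or above that host median, so changes of that size could go uncalled. The small nucleolar RNAs inside rps7 had more counts, with means of 2009 to 4249 in can4-/- and 2702 to 3712 in WT larvae. Their log2 fold changes were 0.19, 0.14 and 0.25 (SE 0.05 each), all called higher, and -0.80 (SE 0.44), which did not pass. Another protein-coding gene overlaps 22 of the 84 genes, whose median was 0.18 against 0.20 for the rest.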

How the data were processed

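RNA of whole 3 dpf larvae was measured in 5 pools of 9 larvae per genotype. The authors aligned the reads to GRCz11 with STAR 2.7.0f (also naming MultiQC and DESeq2 1.24.0 in their processing notes) and deposited unnormalized counts for 25911 genes. For the counting step no program or strand setting is named in the sources used here. The deposited normalized values and the authors' own fold changes and p-values were not used.

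Genes were kept by filterByExpr (minimum count 10, minimum total 15), which left 23039. edgeR 4.0.16 in R 4.3.3 gave TMM factors and quasi-likelihood tests with a term for genotype alone, and Benjamini-Hochberg adjustment ran over every gene tested. CPM values are scaled by TMM, and a normalized count is the CPM brought to the mean library size. Standard errors are the log2 fold change divided by the root of F. Single values per pool were compared by two-sided exact permutation tests.

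The ribosomal protein genes and all lists were chosen with earlier results of these data known. Named members are the 3 with the most counts, up to 6 with the largest changes each way at adjusted p under 0.05, copies of 1 human gene, genes of known role and those annotated as other genes, and from each list some of the 2 largest changes each way. The genes mdm2, rpl3, rpl6, rpl8, rpl9, rpl10a, rpl12, rpl13a, rpl18, rpl29, rps6kb1b, rps9, rps20, rps24 and RPL37A were added after their values were seen. Some members that this rule picks are left out here.

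Alternatives were DESeq2 1.42.0, limma 3.58.1 voom, RLE size factors, library totals, TMM without the members, no filter, at least 50 counts in every pool of a genotype, a replicate block and leaving out each pool.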

Additional observations from a re-analysis of the deposited data

Results flagged for a closer look

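Samples far from the others of their genotype were looked for among 100 groups of 5 pools, and 7 were found, where chance gives about 1 in 20 groups. Among the ribosomal protein genes, WT pool 2 was low in rpl7l1, at 1947 normalized counts, and in rpl10, at 22243, and can4-/- pool 5 was high in rps27.1, at 18840. WT pool 2 was also low in rack1, at 34450 normalized counts. For top2a, can4-/- pool 2 was high at 1358 and WT pool 1 was high at 9082. The mitochondrial ribosomal protein gene mrpl40 stood apart in can4-/- pool 5, at 320.9 normalized counts.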

How the results depend on the processing

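The number of ribosomal protein genes called was close with DESeq2 (77 higher and 2 lower), voom (75 and 2), RLE size factors (75 and 2), TMM without these genes (74 and 2), no filter (73 and 2) and at least 50 counts per pool (78 and 2). Leaving out single pools gave 72 to 77 higher, 2 lower, medians of 0.17 to 0.21, 21 to 26 genes off the family total and differences of 0.0588 to 0.163 percentage points in the share of counts. In those fits 8168 to 8313 of all genes tested were higher and 8214 to 8488 lower. With library totals 20 were higher and 7 lower at a median of 0.014, where 25.7% of all genes tested were higher and 47.7% lower. Log2 fold changes were then below zero for rpl5b (-0.10), the row annotated as COA1 (-0.014), rps26 (-0.10), rps27.1 (-0.022) and rpl22l1 (-0.16). The same held for rps6 (-0.00053), rpl10 (-0.021), rpl3 (-0.14) and rack1 (-0.054), and for others such as rpl6, rps9 and rpl8. Above zero but no longer called were rpsa, rps26l, rps27.2, rplp1, rplp2, rplp2l, rpl22, rps14, rps19, rpl9 and RPL37A, among others. Without the 20 highest other genes of each pool the share of counts differed by 0.367 points (exact permutation test, p = 0.00794). The small to large subunit ratio differed by 0.00384 to 0.00634 without single pools and lost its call in 6 of those, and by -0.0094 as a mean log2 level (exact permutation test, p = 0.119). Without the 3 rows annotated as other genes, an alternative chosen after seeing the data, 72 were higher and 1 lower. The COA1 row lost its call with DESeq2 (adjusted p = 0.0512), without the filter, with the replicate block and without 7 of the 10 single pools.

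The replicate numbers were checked for pairing. Deviations of same-numbered pools correlated at -0.022 to 0.033, which gave no sign of pairing. No can4-/- pool correlated best with the WT pool of its own number. With the replicate block 73 genes were higher and 2 lower at a median of 0.19.

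Counts are relative, and no spike-in or rRNA count was analysed here, so an amount per larva or per cell was not measured. Reads that match more than 1 copy are uncertain.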
